A study of Mus musculus with 90 samples.

Results

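The Zscan4 genes and 3 further genes of the 2-cell mouse embryo were followed through differentiation of mouse embryonic stem cells that carried different forms of the Polycomb protein CBX7. The set was chosen by gene name: Zscan4a, Zscan4c, Zscan4d, Zscan4e and Zscan4f, of a family of SCAN-domain zinc-finger genes, with Tcstv1, Tcstv3 and Zfp352. Of these 8 genes, 7 had a row among the 24961 genes of the embryoid body (EB) table and the 24984 genes of the neural (NPC) table, and Zscan4e had none. After the filter on low counts, 6 remained among the 17791 genes tested in the EB series and the 17818 tested in the NPC series; Tcstv1 was too low to be tested in either.

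RNA was measured in J1 mouse embryonic stem cells, grown on feeder fibroblasts that were removed before differentiation, in 5 lines that differ in CBX7. These were CBX7-CaPS, which carries an added domain, CBX7-mCaPS, which carries a mutated form of that domain, CBX7 KO, CBX7-CaPS-R, for which the labels give no further description, and WT. The name CaPS stands for compaction and phase separation, and the domain is that of the related protein CBX2. EBs were formed in hanging drops and sampled with the stem cells they came from on days 0, 6 and 10, and the neural series, aggregates treated with retinoic acid, was sampled on days 0, 6 and 8. There were 90 libraries of RNA depleted of ribosomal RNA, 3 for each of 30 combinations of line, differentiation and day. The labels do not say whether a line is 1 clone, nor whether the 3 libraries came from separate differentiations, so p-values measure the spread between libraries, which may be technical.

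In the mouse embryo the Zscan4 genes are switched on at the 2-cell stage, when the embryonic genome is first widely transcribed. In embryonic stem cell cultures they are switched on for a short time in a small minority of cells, where ZSCAN4 is known for its role at telomeres. The transcription factor DUX activates them in this state together with Zfp352, Tcstv1, Tcstv3, the Usp17l genes and several families of predicted genes, and DPPA2 and DPPA4 lie upstream of Dux. Many chromatin repressors, among them variant forms of Polycomb repressive complex 1 (PRC1), are known to keep this programme low in stem cells. CBX7 is the main chromobox subunit of canonical PRC1 in stem cells and binds methylated histone H3. Since the RNA came from whole cultures, fewer cells in this state and less RNA per cell cannot be told apart.

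The Zscan4 genes are near-identical copies, and this limits what a value for a single copy means. In the mm10 build they lie within 608 kb of chromosome 7: Zscan4a at chr7:10794241-10799065 and Zscan4d at chr7:11161643-11166148 on the minus strand, Zscan4c at chr7:11005745-11010547 and Zscan4f at chr7:11397915-11402318 on the plus strand, each with 4 exons. Tcstv1 (chr13:119893387-119894785, minus strand) and Tcstv3 (chr13:120316862-120318261, plus strand) lie on chromosome 13, and Zfp352 (chr4:90218820-90225687, plus strand) on chromosome 4, each with 2 exons. RefSeq holds Zscan4a as a transcribed pseudogene and Zscan4e as a pseudogene. The promoters of the 4 genes that have an entry are shown because they carry the family's likeness and its difference from Zfp352. Each sequence is the 250 bases before the start of transcription in RefSeq on GRCm38.p6, written 5′ to 3′ on the strand of the gene, with TATAAA and TGATTNAAT in capitals where a search of both strands found them.
Zscan4c, chr7:11005495-11005744, plus strand: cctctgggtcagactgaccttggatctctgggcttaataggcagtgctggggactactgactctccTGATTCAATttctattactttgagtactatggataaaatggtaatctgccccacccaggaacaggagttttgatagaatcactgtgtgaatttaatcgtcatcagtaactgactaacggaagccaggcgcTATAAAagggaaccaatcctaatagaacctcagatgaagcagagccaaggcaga
Zscan4d, chr7:11166149-11166398, minus strand: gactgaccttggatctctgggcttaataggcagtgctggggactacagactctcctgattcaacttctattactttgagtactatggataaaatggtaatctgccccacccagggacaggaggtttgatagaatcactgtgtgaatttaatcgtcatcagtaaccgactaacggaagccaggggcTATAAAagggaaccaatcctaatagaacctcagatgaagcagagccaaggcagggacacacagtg
Zscan4f, chr7:11397665-11397914, plus strand: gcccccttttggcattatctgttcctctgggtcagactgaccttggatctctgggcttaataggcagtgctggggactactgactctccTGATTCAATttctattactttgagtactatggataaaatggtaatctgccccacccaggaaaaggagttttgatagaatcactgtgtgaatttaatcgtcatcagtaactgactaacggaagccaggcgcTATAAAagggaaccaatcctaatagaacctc
Zfp352, chr4:90218570-90218819, plus strand: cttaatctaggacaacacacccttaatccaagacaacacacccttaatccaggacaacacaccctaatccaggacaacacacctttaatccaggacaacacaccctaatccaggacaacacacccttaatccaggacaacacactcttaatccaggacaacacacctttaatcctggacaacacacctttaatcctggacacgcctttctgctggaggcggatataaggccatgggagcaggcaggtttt
The Zscan4c and Zscan4f promoters were identical at 99.6% of 227 aligned bases, those of Zscan4c and Zscan4d at 97.1% of 239, and those of Zscan4d and Zscan4f at 96.8% of 216. The Zfp352 promoter matched the Zscan4 promoters at 30.0 to 32.5% of bases and was largely made of a short repeat. TATAAA began 54 bases before the start in Zscan4c, 65 in Zscan4d and 31 in Zscan4f, and was not found in the Zfp352 window; 12.4% of 32851 promoters of this length held it. TGATTNAAT, the first 9 letters of the DUX motif, was found in Zscan4c and Zscan4f, 184 and 161 bases before the start, and in 0.658% of promoters. The full motif was found in none of the 4 windows, and in 0.0304% of promoters. Of the 100-base stretches of each gene's exons, the share that also occurs in another annotated gene (GENCODE M21) was 80.6% for Zscan4f, 72.8% for Zscan4c, 39.1% for Zscan4a, 29.6% for Zscan4d, 7.79% for Tcstv3, 3.58% for Tcstv1 and 0.643% for Zfp352. How reads that match several copies were counted is not given in the sources used here, so values of single Zscan4 copies are uncertain. The sum over Zscan4a, Zscan4c, Zscan4d and Zscan4f is given beside them as a level with no test.

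EB libraries held 10.6 to 55.9 M counts (median 40.6 M), and neural libraries 11.8 to 59.3 M (median 39.2 M). A set of 6 libraries stood apart, those numbered 1 of CaPS and of WT on each EB day. In these, 42.1 to 43.5% of their counts between 1 and 20 were even numbers, against 73.5 to 94.1% in the other EB libraries. Gapdh was 3.47 to 10.3 CPM in them and 51.1 to 496 CPM in the EB libraries of CaPS and WT numbered 2 and 3. In all EB libraries of mCaPS and KO it was 12.8 to 31.3 CPM. No CaPS or WT library of the EB series lay in that range, so this difference cannot be told apart from line. The ribosomal RNA gene Rn45s took 2.73 to 88.7% of the counts in the EB series, most in mCaPS day 0 library 3, and 4.24 to 50.3% in the NPC series. Cbx7 reads remained in the KO libraries, at 87.8 to 111 CPM on EB day 0, against 76.8 to 132 CPM in WT, and at 112 to 137 CPM on NPC day 0, against 157 to 191 CPM in WT. The labels do not say which part of Cbx7 was removed, so counts over the whole gene do not check the KO label. The summed level of 10 stem cell markers was 153 to 1241 CPM on EB day 10, against 2446 to 5195 CPM on day 0. It was 126 to 304 CPM on NPC day 8, against 2341 to 3975 CPM on day 0. The summed level of 8 neural progenitor markers in WT was 108 to 318 CPM on NPC day 0, 738 to 981 CPM on day 6 and 1045 to 1534 CPM on day 8. All levels are CPM, counts scaled to the library total after adjustment by the trimmed mean of M-values (TMM) within a series.

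In stem cells of the EB series, CBX7 KO had the highest level of every one of the 7 genes. Summed over the Zscan4 copies, day 0 values were 5.64, 19.6 and 0.120 CPM in CaPS, 7.80, 7.79 and 1.6 CPM in mCaPS, 37.1, 47.0 and 64.9 CPM in KO, and 1.01, 9.11 and 2.34 CPM in WT. All 3 KO libraries were above all 9 libraries of the other lines, which overlapped each other. The KO mean was 49.6 ± 14.1 CPM and the WT mean 4.15 ± 4.34 CPM (SD, n = 3 each), a ratio of 12, and rested on 7256 and 368 reads.

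Zscan4a was at 11.7, 15.4 and 21.2 CPM in KO, against 0.534, 2.83 and 0.883 CPM in WT. Zscan4c, the copy best known from embryonic stem cells, was at 10.5, 11.2 and 16.4 CPM in KO, against 0.237, 3.31 and 0.552 CPM in WT. Zscan4d, the copy best known from the 2-cell embryo, was at 10.1, 14.0 and 19.0 CPM in KO, against 0.237, 2.19 and 0.640 CPM in WT. In each of these genes the lowest KO library lay above the highest WT library, and WT library 2 was the highest of its group. Zscan4f was at 4.79, 6.28 and 8.28 CPM in KO, against 0, 0.781 and 0.265 CPM in WT. Tcstv3, which encodes a short protein of the 2-cell stage, was at 0.958, 1.39 and 1.57 CPM in KO, against 0.0594, 0.335 and 0.0883 CPM in WT. Zfp352, a zinc-finger gene of the early embryo, was at 0.582, 1.25 and 1.17 CPM in KO, against 0.0594, 0.223 and 0.0441 CPM in WT. These 3 genes showed the same separation. Tcstv1 had 30 reads over the 3 KO libraries and none in WT, with 0.171, 0.185 and 0.254 CPM in KO.

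None of the 6 genes tested passed the threshold of adjusted p below 0.05 between KO and WT on EB day 0 (edgeR quasi-likelihood F test, two-sided, with Benjamini-Hochberg adjustment over all genes), which 0.174% of all genes passed as higher in KO. The log2 fold changes were 3.5 ± 1.1 for Zscan4a (SE, adjusted p = 0.265), 3.21 ± 1.21 for Zscan4c (adjusted p = 0.472), 3.79 ± 1.07 for Zscan4d (adjusted p = 0.153) and 4.15 ± 1.28 for Zscan4f (adjusted p = 0.245). They were 2.98 ± 1.22 for Tcstv3 (adjusted p = 0.581) and 3.18 ± 1.24 for Zfp352 (adjusted p = 0.530). The median over the 6 was 3.35, against -0.09 over all genes tested. All 3 KO libraries were above all 3 WT libraries in 6 of 6 genes, an order that 7.66% of all genes tested showed. Genes low in the other lines could pass the filter through the KO libraries alone, which may raise this count. At an unadjusted p below 0.05 there were 6 genes, and DESeq2 called 1, Zscan4d (log2 fold change 3.83, adjusted p = 0.0232). Gapdh was at 24.7 to 29.0 CPM in the KO libraries, against 10.3, 353 and 113 CPM in WT, with no WT library in the KO range. The summed feeder markers were at 2291 to 2692 CPM in KO, against 745 to 5677 CPM in WT, and the part of either in the result was not tested.

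The other EB stem cell lines did not separate from WT. Log2 fold changes against WT were 0.25 to 1.75 in CaPS and -1.01 to 1.00 in mCaPS, with every adjusted p at 0.753 or above and overlapping groups in all 6 genes. No gene of the 6 was called by edgeR or DESeq2 or had an unadjusted p below 0.05, and the share of all genes called was 0% for CaPS and 0.916% for mCaPS. CaPS library 3, at 0.120 CPM for the Zscan4 sum, was the lowest of all stem cell libraries of the series, and CaPS library 2, at 19.6 CPM, the highest outside KO. Between CaPS and mCaPS none of the 6 genes was called on day 0 by edgeR or DESeq2 or had an unadjusted p below 0.05, where 0.793% of all genes were called.

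**Figure D1:**
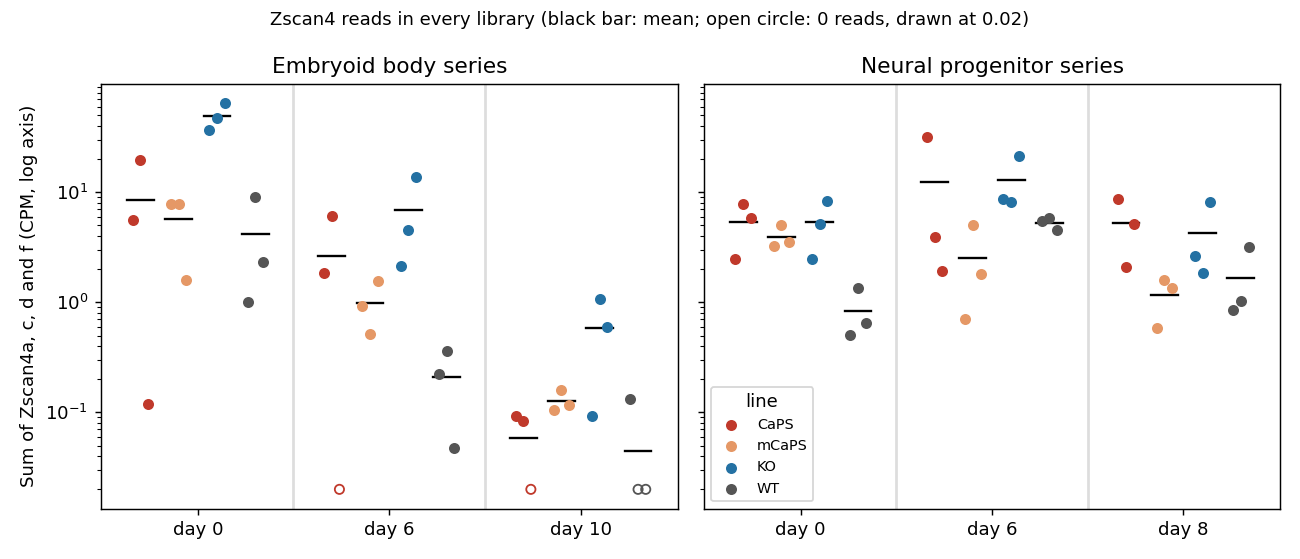
Summed level of Zscan4a, Zscan4c, Zscan4d and Zscan4f (CPM, log axis) in every library of the EB series and of the NPC series, by day and line; points are libraries, bars are group means, and open circles are libraries with 0 reads. On EB day 0 the 3 KO libraries sit at 37.1 to 64.9 CPM, above all others, and on NPC day 0 the 3 WT libraries sit at 0.510 to 1.35 CPM, below all others of that day.

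**Figure D2:**
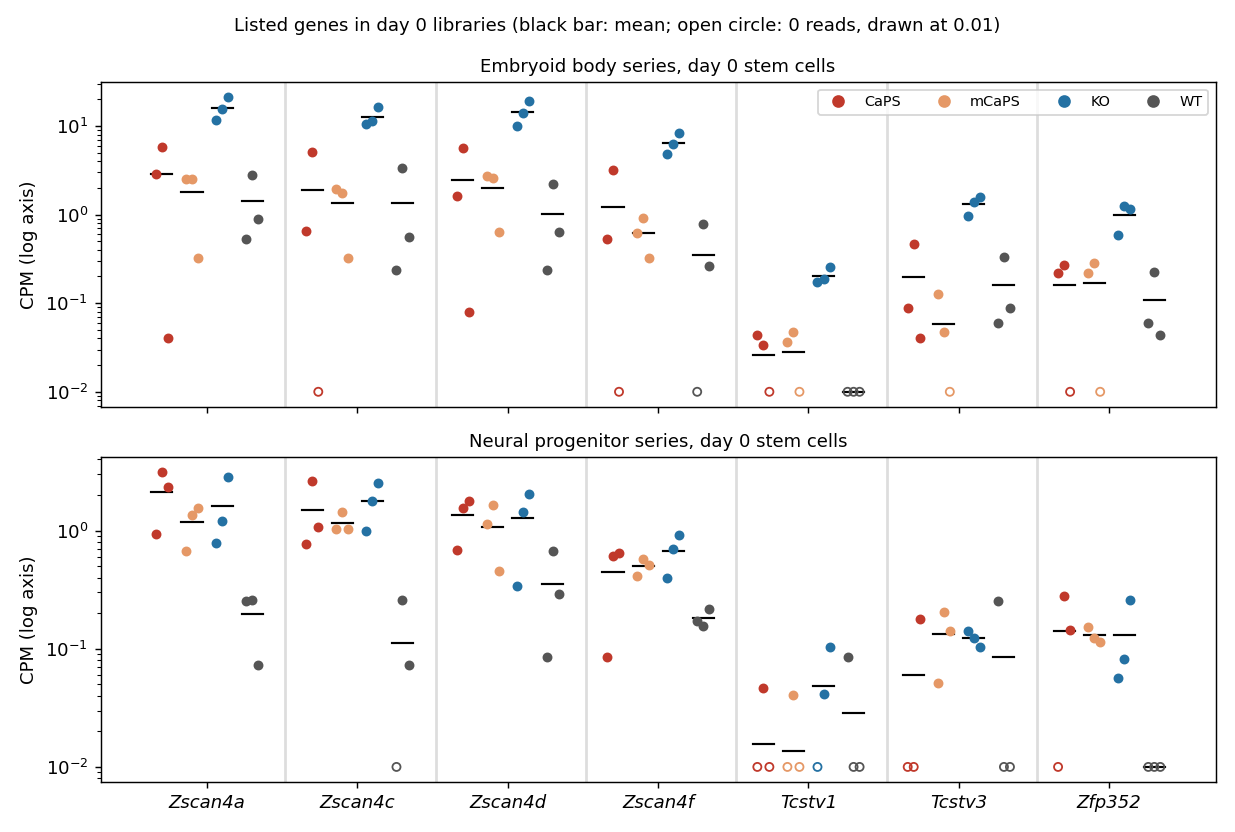
Level of each of the 7 genes with a row (CPM, log axis) in the stem cells of day 0, for the EB series and for the NPC series; points are libraries by line, and libraries with 0 reads are drawn at the foot of the axis. In the EB series the KO libraries are the highest for every gene, and in the NPC series KO lies among CaPS and mCaPS.

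On EB day 10, 4 of the 6 genes tested were lower than on day 0 in CaPS, 5 in mCaPS, 6 in KO and 4 in WT. The Zscan4 sum in WT was 1.01, 9.11 and 2.34 CPM on day 0, 0.225, 0.363 and 0.0477 CPM on day 6, and 0.134, 0 and 0 CPM on day 10, where the whole group held 3 reads. In KO it was 37.1, 47.0 and 64.9 CPM on day 0, 2.15, 4.51 and 13.9 CPM on day 6, and 0.0936, 1.07 and 0.603 CPM on day 10. No 2 days overlapped in KO, and in WT both later days lay below day 0. In CaPS the day 6 values were 1.86, 6.09 and 0 CPM and the day 10 values 0.0937, 0.0834 and 0 CPM. In mCaPS they were 0.919, 0.515 and 1.55 CPM on day 6 and 0.104, 0.162 and 0.116 CPM on day 10. The mean on day 10 was 0.00697 of the day 0 mean in CaPS, 0.0222 in mCaPS, 0.0118 in KO and 0.0107 in WT. Of 13 feeder fibroblast markers, 9 were lower on day 10 in CaPS (median log2 fold change -3.23), 9 in mCaPS (-4.16), 7 in KO (-2.57) and 9 in WT (-3.46), and 12 were lower in WT on day 6 (-5.69). Their summed level in WT was 745 to 5677 CPM on day 0, 515 to 1175 CPM on day 6 and 1024 to 2514 CPM on day 10. On day 10 it was 878 to 2495 CPM in CaPS, against 1418 to 5069 CPM on day 0, 2676 to 3360 CPM in mCaPS, against 2904 to 12740 CPM, and 2457 to 3205 CPM in KO, against 2291 to 2692 CPM. Their part in the EB day 6 and day 10 results was not tested.

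In KO all 6 tested genes were lower on day 10 than on day 0, where 9.87% of all genes were called lower. The days did not overlap in any of the 6, an order that 26.7% of all genes showed. Tcstv3 fell by 7.22 ± 1.73 on the log2 scale (SE, edgeR adjusted p = 0.00199), to 0, 0 and 0.0216 CPM on day 10. The log2 fold changes of the Zscan4 copies were close to each other, at -6.90 ± 1.5 for Zscan4f (adjusted p = 0.00106), -6.4 ± 1.22 for Zscan4d (adjusted p = 0.000341), -6.25 ± 1.41 for Zscan4c (adjusted p = 0.00166) and -6.21 ± 1.26 for Zscan4a (adjusted p = 0.000635). Zfp352 fell by 3.82 ± 1.23 (adjusted p = 0.0242), to 0.0312, 0.0514 and 0.129 CPM on day 10, and kept the highest share of its day 0 level. The Zfp352 call was lost without KO day 0 library 2 or 3 or KO day 10 library 1 or 2 (adjusted p = 0.0615, 0.0611, 0.103 and 0.0919).

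In mCaPS 5 of the 6 genes were lower on day 10, where 18.5% of all genes were. The log2 fold changes were -6.51 ± 1.77 for Zscan4c (edgeR adjusted p = 0.00362), -5.65 ± 1.32 for Zscan4d (adjusted p = 0.00129), -5.19 ± 1.34 for Zscan4a (adjusted p = 0.00307) and -4.54 ± 1.57 for Zscan4f (adjusted p = 0.0203). Zfp352 had no reads on day 10, a level at least 12.4-fold lower (adjusted p = 0.0131), and Tcstv3, at least 4.63-fold lower, was not called (adjusted p = 0.0711). The Zscan4f call was lost without mCaPS day 0 library 2 or day 10 library 1 or 2 (adjusted p = 0.0527, 0.0826 and 0.0773).

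In CaPS the 4 Zscan4 genes were lower on day 10, where 12.1% of all genes were. Zscan4a and Zscan4c had no reads on day 10, levels at least 59.1-fold and at least 40.8-fold lower (edgeR adjusted p = 0.00129 and 0.00506). Zscan4d and Zscan4f had log2 fold changes of -5.79 ± 1.44 and -6.20 ± 1.92 (adjusted p = 0.00337 and 0.0132). Zscan4a and Tcstv3 had days that did not overlap, as did 14.9% of all genes in this direction, and the other 4 genes overlapped; CaPS day 0 library 3 held at most 0.0800 CPM of any of the 6. Without CaPS day 0 library 2, the highest of its group, Zscan4c and Zscan4f were no longer called (adjusted p = 0.0781 and 0.172), and without day 10 library 2 or 3 Zscan4f was not (adjusted p = 0.0527 and 0.0577). Tcstv3 was at least 4.39-fold lower (adjusted p = 0.0619) and Zfp352 at least 3.17-fold lower (adjusted p = 0.0774). With the library number as a block Tcstv3 was called (log2 fold change -6.09, adjusted p = 0.0484), for 5 genes in all. Without CaPS day 0 library 3 both were called (adjusted p = 0.0467 and 0.0373), for 6 in all.

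In WT the 4 Zscan4 genes were lower on day 10, where 14.5% of all genes were. Zscan4a and Zscan4c had log2 fold changes of -6.57 ± 1.81 and -5.65 ± 1.79 (edgeR adjusted p = 0.00510 and 0.0148). Zscan4d and Zscan4f, with no reads left, were at least 29.6-fold and at least 10.6-fold lower (adjusted p = 0.00326 and 0.0363). Tcstv3 was at least 4.51-fold lower (adjusted p = 0.0651) and Zfp352 at least 2.90-fold lower (adjusted p = 0.101). With the library number as a block Tcstv3 was called in WT too (-5.61, adjusted p = 0.0457), for 5 genes in all. Without WT day 0 library 2 neither Zscan4c nor Zscan4f was called (adjusted p = 0.126 and 0.141). Zscan4c was lost also without day 10 library 2 or 3 (adjusted p = 0.0606 and 0.0683). Zscan4f was lost without day 10 library 1, 2 or 3 (adjusted p = 0.0763, 0.0882 and 0.104) and without the 6 libraries that stood apart (adjusted p = 0.0662), which left 3 genes.

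In WT, 2 of the 6 genes were lower on day 6 than on day 0, where 4.62% of all genes were. They were Zscan4c and Zscan4d, with log2 fold changes of -5.70 ± 1.79 and -4.80 ± 1.47 (SE, edgeR adjusted p = 0.0406 and 0.0356). Zscan4a was at -3.60 ± 1.31 (adjusted p = 0.0899), Zscan4f at -3.77 ± 1.82 (adjusted p = 0.212) and Tcstv3 at -2.76 ± 1.71 (adjusted p = 0.366), and Zfp352, with no reads on day 6, was at least 2.94-fold lower (adjusted p = 0.205). With the library number as a block Zscan4a was called (-3.66, adjusted p = 0.00868), for 3 genes in all. Both calls were lost without any one of WT day 0 library 2 or 3 or day 6 library 1, 2 or 3 (adjusted p between 0.0551 and 0.244 for Zscan4c and between 0.0562 and 0.182 for Zscan4d). They were lost without the 6 libraries that stood apart (adjusted p = 0.0773 and 0.0619), and Zscan4c was lost also with no filter on low counts (adjusted p = 0.0590).

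On day 6 the KO libraries still held more of these RNAs than WT, though none of the 6 genes was called, where 0.146% of all genes were called higher in KO. Zscan4d was at 0.444, 1.45 and 4.18 CPM in KO, against 0.0563, 0 and 0.0477 CPM in WT, a log2 fold change of 5.76 ± 1.45 (SE, edgeR adjusted p = 0.0543). Zscan4c was at 0.513, 0.953 and 3.59 CPM in KO, against 0, 0.0725 and 0 CPM in WT (5.99 ± 1.78, adjusted p = 0.186). Library 3 was the highest KO library for both. All 3 KO libraries were above all 3 WT libraries in 5 of the 6 genes, all but Tcstv3, an order that 8.11% of all genes showed. At an unadjusted p below 0.05 there were 6 genes, DESeq2 called 1, Zscan4d (adjusted p = 0.00157), and edgeR called Zscan4d without KO day 6 library 1 (adjusted p = 0.0310).

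The other EB comparisons between lines called none of the 6 genes. On day 6 CaPS had log2 fold changes of 2.83 to 5.06 against WT in 5 genes, and Zfp352, with no reads in WT, was at least 6.44-fold higher (edgeR adjusted p = 0.761). The groups overlapped, and every adjusted p was 0.695 or above. In the Zscan4 sum the overlap rested on CaPS library 3, which held 0 reads of it. Rn45s took 63.0% of the counts of that library. There 3 counts equal 0.532 CPM, scaled over the rows shared with CaPS-R, and WT reached 0.363 CPM. At an unadjusted p below 0.05 there were 5 genes, and 0 were called by DESeq2, where 0% of all genes were called. For mCaPS against WT on day 6 the counts were 0 unadjusted and 0 by DESeq2, with 0.540% of all genes called, and for CaPS against mCaPS they were 1 and 0, with 1.12%. On day 10 the counts against WT were 0 and 0 for CaPS (0.00562% of all genes called), 0 and 0 for mCaPS (0.708%), and 1 and 0 for KO (0.877%), and 0 and 0 for CaPS against mCaPS (3.18%). For the change from day 0 to day 10 against that in WT, none of the 6 genes was called in CaPS, mCaPS or KO by edgeR or DESeq2 or had an unadjusted p below 0.05, and 0%, 0% and 0.00562% of all genes were called.

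In the neural series the order was different. WT stem cells had the lowest Zscan4 sum of the 4 lines on day 0, and in WT 3 of the 6 genes tested were higher on day 6 than on day 0. The Zscan4 sum in WT was 0.510, 1.35 and 0.653 CPM on day 0, 5.52, 5.80 and 4.52 CPM on day 6, and 0.861, 1.02 and 3.15 CPM on day 8. The day 6 libraries lay close together and above every library of the other days. The group mean on day 6 was 6.29 times, and on day 8 2.00 times, the day 0 mean, from 82 reads on day 0, 592 on day 6 and 151 on day 8.

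Zscan4c in WT was at 1.90, 2.02 and 1.59 CPM on day 6, against 0, 0.260 and 0.0725 CPM on day 0. Zscan4a was at 0.761, 1.48 and 1.02 CPM on day 6, against 0.255, 0.260 and 0.0725 CPM on day 0. Zfp352 was at 0.0544, 0.282 and 0.191 CPM on day 6 and had no reads on day 0. These 3 genes were called higher on day 6, where 19.0% of all genes were. Zscan4c was higher by 3.87 ± 0.95 on the log2 scale (SE, edgeR adjusted p = 0.00194), Zscan4a by 2.44 ± 0.98 (adjusted p = 0.0486) and Zfp352 at least 5.39-fold (adjusted p = 0.0180). Zscan4f was at 2.17 ± 0.95 (adjusted p = 0.0691), Zscan4d at 2.07 ± 1.07 (adjusted p = 0.129) and Tcstv3 at 0.37 ± 1.57 (adjusted p = 0.868). All 3 day 6 libraries were above all 3 day 0 libraries in 5 of the 6 genes, all but Tcstv3, which 25.5% of all genes showed. The Zscan4c call was kept in every alternative run. The Zscan4a call was lost without any one of the 6 libraries compared (adjusted p between 0.0535 and 0.15), with relative log expression factors (adjusted p = 0.0518) and with no filter on low counts (adjusted p = 0.0590). The Zfp352 call was lost without day 0 library 2 or day 6 library 2 (adjusted p = 0.0606 and 0.0554). Over the same days the stem cell marker sum in WT fell to 320 to 422 CPM on day 6, against 3387 to 3767 CPM on day 0. The neural marker sum was 738 to 981 CPM on day 6, against 108 to 318 CPM on day 0, and the feeder marker sum was 565 to 699 CPM on day 6, against 1579 to 5915 CPM on day 0. The part of these in the result was not tested.

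On day 8 none of the 6 genes was called against day 0 in WT, where 27.5% of all genes were called higher. Zscan4c was at 0.267, 0.269 and 1.2 CPM on day 8, above the day 0 libraries, as were 30.1% of all genes (log2 fold change 2.18 ± 0.96, edgeR adjusted p = 0.0535). It was the 1 gene with an unadjusted p below 0.05, DESeq2 called it (adjusted p = 0.0246), and edgeR called it without day 0 library 2 or day 8 library 1 or 2 (adjusted p = 0.02, 0.0481 and 0.0413).

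The direction in WT by day 6 was opposite in EBs and in the neural series, and the difference was tested in a fit of both series together, a comparison added after the values had been seen. The neural change from day 0 to day 6 less the EB change was 9.60 ± 1.98 on the log2 scale for Zscan4c (SE, edgeR adjusted p = 0.000927), 6.89 ± 1.88 for Zscan4d (adjusted p = 0.0151) and 6.05 ± 1.66 for Zscan4a (adjusted p = 0.0170). It was 5.97 ± 1.99 for Zscan4f (adjusted p = 0.0527) and 3.16 ± 2.41 for Tcstv3 (adjusted p = 0.511). Zfp352 differed too (adjusted p = 0.0180), with no reads in WT on NPC day 0 or EB day 6, so that its fitted difference has no stated size. In all, 4 of the 6 genes differed, where 5.97% of the 18407 genes tested did. The day 0 stem cells of the series are separate libraries. The WT day 0 mean of the Zscan4 sum was 4.15 ± 4.34 CPM in the EB series and 0.838 ± 0.451 CPM in the NPC series (SD), each on its own scale. The part of the unlike day 0 levels in the difference was not tested. Without EB WT day 0 library 2 Zscan4c was called, and Zscan4a, Zscan4d and Zfp352 were not (adjusted p = 0.0701, 0.0704 and 0.0665). Zscan4a was lost also without EB WT day 6 library 3 or NPC WT day 0 library 3 (adjusted p = 0.0643 and 0.0530). Without the 6 libraries that stood apart the same number, 4, was called.

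**Figure D3:**
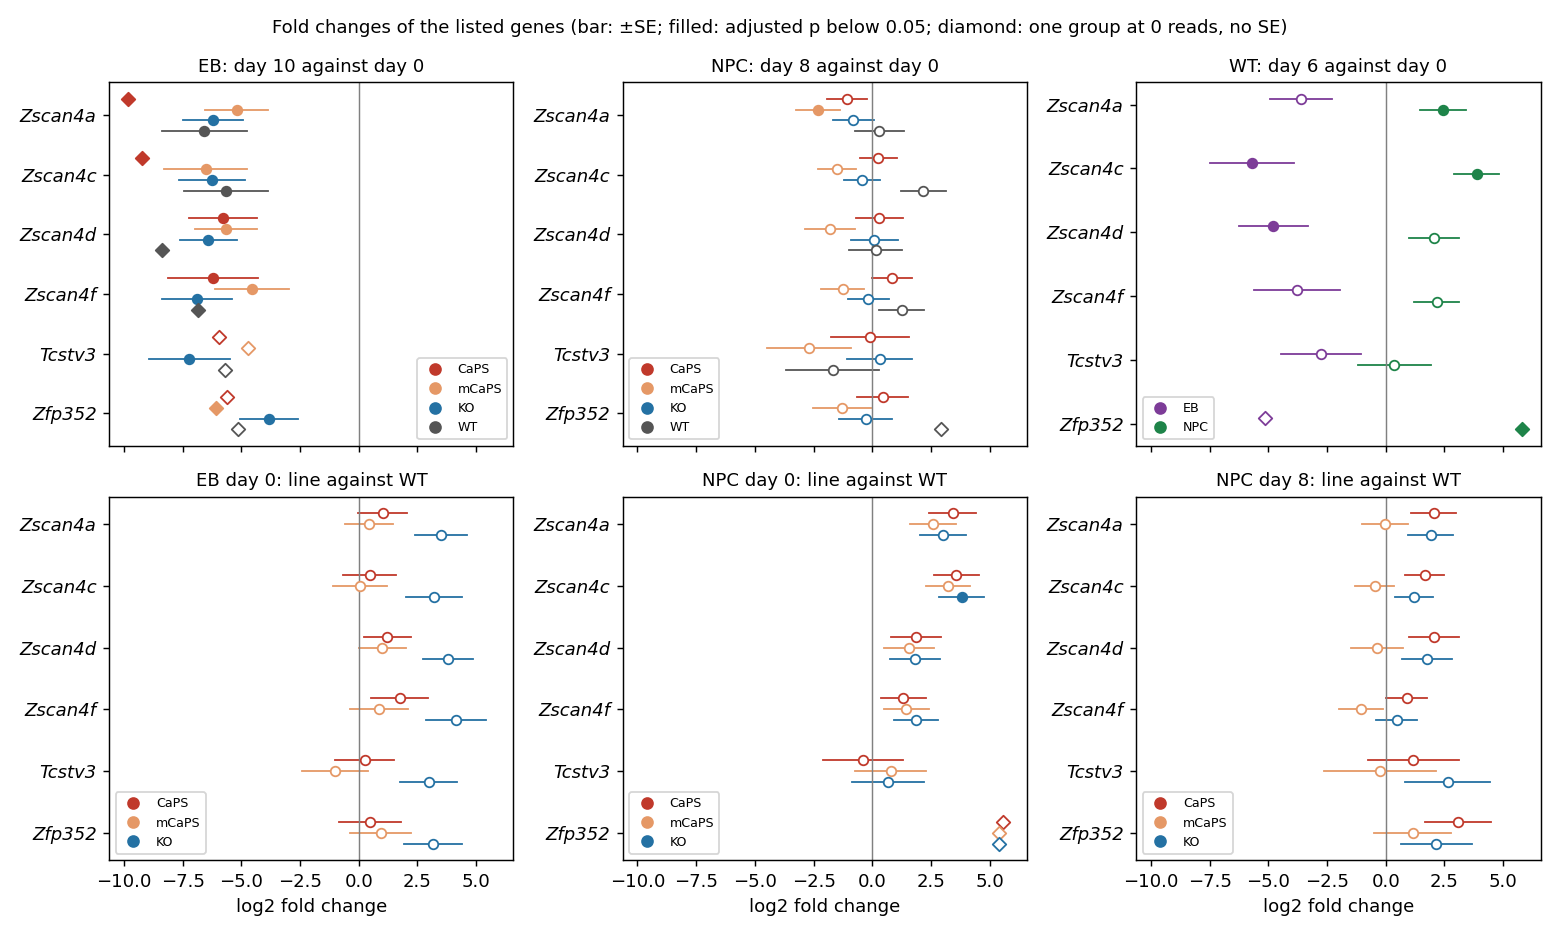
Log2 fold changes of the 6 tested genes in 6 panels: EB day 10 against day 0, NPC day 8 against day 0 and WT day 6 against day 0 in both series, then each line against WT on EB day 0, NPC day 0 and NPC day 8. Bars are standard errors, filled points have an adjusted p below 0.05, and diamonds mark fits in which a group had 0 reads and which have no bar. In the WT day 6 panel the EB values lie below 0, with -5.70 for Zscan4c, and the NPC values above 0, with 3.87 for Zscan4c.

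The other 3 lines of the neural series were sampled on the same days. The Zscan4 sum was 2.47, 7.91 and 5.85 CPM in CaPS, 3.22, 5.00 and 3.54 CPM in mCaPS and 2.50, 5.12 and 8.36 CPM in KO on day 0. On day 6 it was 31.6, 3.93 and 1.93 CPM in CaPS, 0.710, 5.04 and 1.81 CPM in mCaPS and 8.75, 8.19 and 21.6 CPM in KO. On day 8 it was 8.72, 2.09 and 5.13 CPM in CaPS, 0.586, 1.58 and 1.36 CPM in mCaPS and 2.65, 1.86 and 8.17 CPM in KO. One CaPS library, day 6 library 1, held the highest level of the neural series, and the day 6 libraries of CaPS and mCaPS spread over the range of the other days.

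Between day 0 and day 8, 1 gene was called in mCaPS, where 21.5% of all genes were called lower. Zscan4a fell by 2.30 ± 0.94 on the log2 scale (edgeR adjusted p = 0.0452), with 0.126, 0.336 and 0.259 CPM on day 8, against 0.665, 1.35 and 1.54 CPM on day 0. All 3 day 8 libraries of mCaPS lay below all 3 day 0 libraries in Zscan4a, Zscan4c, Zscan4d, Zscan4f and Zfp352, an order that 27.5% of all genes showed. The Zscan4a call was lost without any one of 5 of the 6 libraries, all but day 0 library 1 (adjusted p between 0.0575 and 0.131). In CaPS the log2 fold changes were -1.08 to 0.83 and in KO -0.80 to 0.32, with no gene called by edgeR or DESeq2 or at an unadjusted p below 0.05, where 48.6% and 43.3% of all genes were called in either direction. Set against the change in WT, Zscan4c in mCaPS changed by -3.69 ± 1.26 (edgeR adjusted p = 0.0594), and no gene of the 6 was called in CaPS, mCaPS or KO, where 0%, 9.49% and 0.337% of all genes were. At an unadjusted p below 0.05 there were 0, 1 and 1 genes, and DESeq2 called 0, 1 and 0. The gene in mCaPS was Zscan4c (adjusted p = 0.0162), which edgeR called without NPC WT day 0 library 2 (-5.28, adjusted p = 0.0408).

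In the stem cells of the neural series, the 3 lines with a changed CBX7 all had more Zscan4 RNA than WT. The mean sum was 5.41 ± 2.75 CPM in CaPS, 3.92 ± 0.947 CPM in mCaPS, 5.33 ± 2.94 CPM in KO and 0.838 ± 0.451 CPM in WT (SD, n = 3 each), ratios of 6.45, 4.68 and 6.35 to WT. No library of the 3 lines overlapped a WT library in this sum. All 3 comparisons share the same 3 WT libraries.

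Zscan4c was at 0.983, 1.77 and 2.55 CPM in KO, against 0, 0.260 and 0.0725 CPM in WT. It was the 1 gene of the 6 called, at a log2 fold change of 3.81 ± 0.95 (SE, edgeR adjusted p = 0.0157), where 2.40% of all genes were called higher in KO. Without WT day 0 library 1 it was not called (3.35, adjusted p = 0.0831). Zscan4a was at 0.786, 1.21 and 2.83 CPM in KO, against 0.255, 0.260 and 0.0725 CPM in WT (3.01 ± 0.99, adjusted p = 0.0665; DESeq2 called it, with adjusted p = 0.0176, for 2 genes in all). Zscan4f was at 0.393, 0.699 and 0.926 CPM in KO, against 0.170, 0.156 and 0.218 CPM in WT (1.88 ± 0.94, adjusted p = 0.245). Zfp352 was at 0.0562, 0.0822 and 0.257 CPM in KO and had no reads in WT, a level at least 3.88-fold higher (adjusted p = 0.1). In these 4 genes all KO libraries were above all WT libraries, an order that 11.1% of all genes showed.

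In mCaPS, Zscan4c was at 1.02, 1.43 and 1.03 CPM (3.21 ± 0.94 against WT, edgeR adjusted p = 0.0557) and Zscan4a at 0.665, 1.35 and 1.54 CPM (2.57 ± 0.98, adjusted p = 0.155). Zfp352 was at 0.154, 0.123 and 0.114 CPM, at least 3.88-fold higher than in WT (adjusted p = 0.132). None of the 6 genes was called, where 1.05% of all genes were called higher. There were 3 genes at an unadjusted p below 0.05, and DESeq2 called Zscan4c (adjusted p = 0.00678). Zscan4a, Zscan4c, Zscan4f and Zfp352 had all mCaPS libraries above all WT libraries, as did 11.6% of all genes.

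In CaPS, Zscan4c was at 0.766, 2.63 and 1.08 CPM (3.58 ± 0.95 against WT, edgeR adjusted p = 0.529) and Zscan4a at 0.936, 3.12 and 2.33 CPM (3.42 ± 1, adjusted p = 0.708). No gene of the 6 was called by edgeR or DESeq2, where 0% of all genes were called higher, and 3 had an unadjusted p below 0.05. Zscan4a, Zscan4c and Zscan4d had all CaPS libraries above all WT libraries, as did 3.08% of all genes. Between CaPS and mCaPS none of the 6 genes was called on day 0 by edgeR or DESeq2 or had an unadjusted p below 0.05, where 2.10% of all genes were called. The summed feeder markers on NPC day 0 were at 1326 to 5874 CPM in CaPS, 1064 to 1301 CPM in mCaPS, 1058 to 1488 CPM in KO and 1579 to 5915 CPM in WT, so that mCaPS and KO lay below WT. Rn45s took 27.0 to 50.3% of counts in CaPS, 15.0 to 32.9% in mCaPS, 8.83 to 25.9% in KO and 21.7 to 42.7% in WT. The part of either in the results was not tested.

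After differentiation none of the 6 genes was called between lines in the neural series. On day 6 the log2 fold changes against WT were 0.68 to 1.49 in CaPS, -1.35 to -0.20 in mCaPS and 0.57 to 1.47 in KO, with no gene at an unadjusted p below 0.05 or called by DESeq2, where 0%, 2.22% and 0.0281% of all genes were called. On day 8, 2 genes in CaPS had an unadjusted p below 0.05, Zscan4a (2.04 ± 0.95, edgeR adjusted p = 0.528) and Zfp352 (3.08 ± 1.42, adjusted p = 0.486). There were 0 in mCaPS and 0 in KO, with 0 called by DESeq2 in each line, where 0.0112%, 18.5% and 0.0505% of all genes were called.

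CaPS and mCaPS carry the intact and the mutated form of the added domain, and none of the 6 genes was called between them on day 8. Zscan4d was at 3.20, 0.584 and 1.25 CPM in CaPS, against 0.0837, 0.408 and 0.453 CPM in mCaPS, a log2 fold change of 2.42 ± 1.08 (SE, edgeR adjusted p = 0.224). Zscan4c was at 2.69, 0.768 and 1.96 CPM in CaPS, against 0.335, 0.624 and 0.259 CPM in mCaPS (2.13 ± 0.83, adjusted p = 0.164), and Zscan4a was 2.08 ± 0.94 higher on this scale (adjusted p = 0.229). In these 3 genes all CaPS libraries lay above all mCaPS libraries, as they did in 9.04% of all genes, while Zscan4f overlapped (1.94 ± 0.91, adjusted p = 0.246). In all, 4 had an unadjusted p below 0.05 and 0 were called by DESeq2, where 1.59% of all genes were called. On day 6 the same 4 genes had log2 fold changes of 2.12 to 2.46 with overlapping groups and an edgeR adjusted p of 1. All 4 had an unadjusted p below 0.05 and 0 were called by DESeq2, where 0.0112% of all genes were called. CaPS day 6 library 1, at 31.6 CPM for the sum, stood above the other 2 CaPS libraries at 3.93 and 1.93 CPM.

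Ordered by mean, the Zscan4 sum in the EB series ran from KO day 0 (49.6 CPM) through CaPS day 0 (8.47 CPM), KO day 6 (6.85 CPM), mCaPS day 0 (5.73 CPM) and WT day 0 (4.15 CPM) to CaPS day 6 (2.65 CPM). Below it came mCaPS day 6 (0.995 CPM), KO day 10 (0.588 CPM), WT day 6 (0.212 CPM), mCaPS day 10 (0.127 CPM), CaPS day 10 (0.0590 CPM) and WT day 10 (0.0445 CPM). Neighbours in this order overlapped, except KO day 0, which lay above the next group, and mCaPS day 10, which lay above CaPS day 10. In the NPC series KO day 6 (12.8 CPM) and CaPS day 6 (12.5 CPM) were followed by CaPS day 0 (5.41 CPM), KO day 0 (5.33 CPM), CaPS day 8 (5.31 CPM) and WT day 6 (5.28 CPM). Below them came KO day 8 (4.23 CPM), mCaPS day 0 (3.92 CPM), mCaPS day 6 (2.52 CPM), WT day 8 (1.68 CPM), mCaPS day 8 (1.18 CPM) and WT day 0 (0.838 CPM), and every pair of neighbours overlapped. The series were scaled separately, so levels are not compared across them.

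Per kilobase of exon, Zscan4f was the lowest of the listed Zscan4 copies in both groups given here. How reads that match several copies were counted is not given, so the order of the copies is uncertain. In EB KO stem cells the mean level was 7.21 CPM per kb for Zscan4d, 7.13 for Zscan4a, 5.59 for Zscan4c and 3.53 for Zscan4f, with 1.49 for Tcstv3, 0.442 for Zfp352 and 0.232 for Tcstv1. In neural WT aggregates on day 6 the order of the copies was another, with 0.807 CPM per kb for Zscan4c, 0.770 for Zscan4d, 0.481 for Zscan4a and 0.449 for Zscan4f. As a share of the reads in the Zscan4 sum, in libraries with at least 100 such reads, Zscan4a took 13.8 to 50.4%, Zscan4c 11.6 to 39.4%, Zscan4d 12.9 to 37.1% and Zscan4f 7.65 to 20.5%. In the 3 KO libraries of EB day 0 the Zscan4a share was 31.6 to 32.9%. Across libraries the 6 genes varied together, with the 6 EB libraries that stood apart left out. Pearson correlations of log2 CPM between pairs were 0.866 to 0.983 over 30 EB libraries and 0.488 to 0.864 over 36 NPC libraries, the lowest for Zscan4c with Tcstv3. The libraries share line, day and depth, and the Zscan4 copies share sequence, so these are descriptions.

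**Figure D4:**
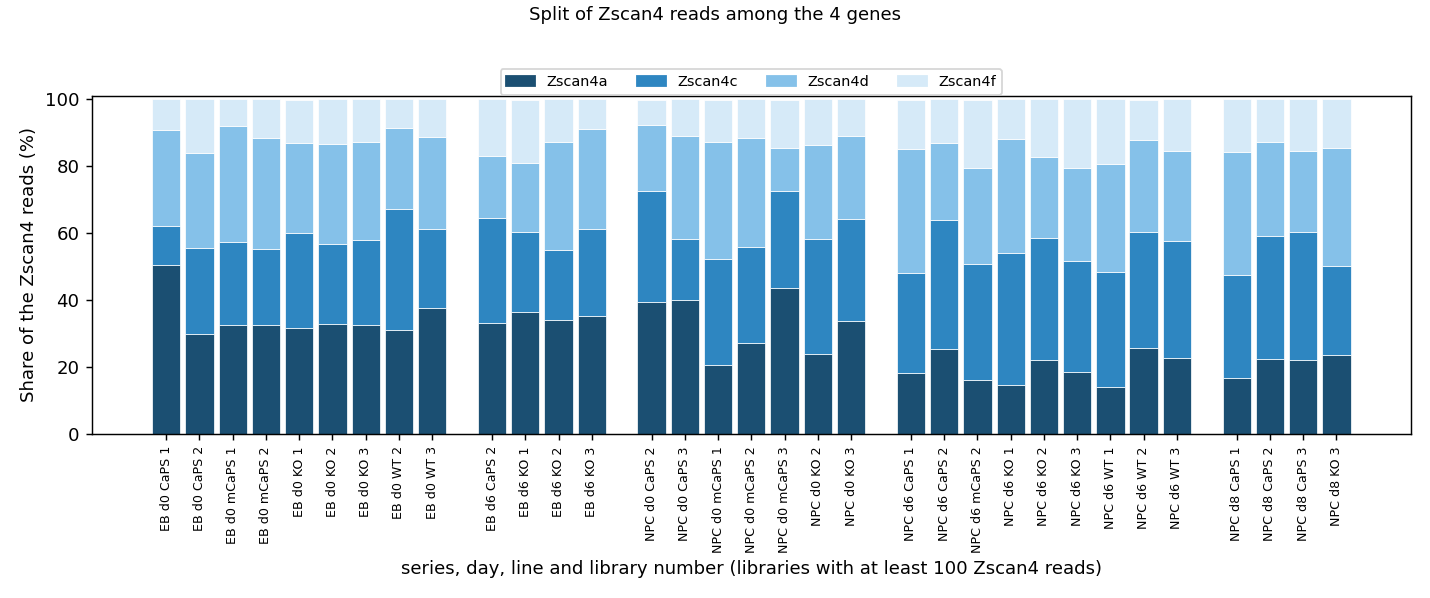
Share of Zscan4a, Zscan4c, Zscan4d and Zscan4f in the reads of the Zscan4 sum (percent, stacked), for each library with at least 100 such reads. Every such library holds reads of all 4 copies, with Zscan4f at 7.65 to 20.5%, against 13.8 to 50.4% for Zscan4a.

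Zscan4b, a further copy at chr7:10900740-10905050 that the gene list did not name, was counted too. On EB day 0 it was at 2.98, 5.12 and 6.01 CPM in KO, against 0, 0.892 and 0.287 CPM in WT (log2 fold change 3.53 ± 1.24, edgeR adjusted p = 0.396). It was lower on EB day 10 in all 4 lines. The difference was at least 23.7-fold in CaPS (adjusted p = 0.00824), with log2 fold changes of -4.92 ± 1.72 in mCaPS and -5.30 ± 1.36 in KO (adjusted p = 0.0196 and 0.00514), and at least 11.9-fold in WT (adjusted p = 0.0283). In neural WT it was at 0.707, 0.329 and 0.318 CPM on day 6 and had no reads on day 0, at least 13.5-fold higher (adjusted p = 0.00437), and was at least 4.59-fold higher on day 8 (adjusted p = 0.0216). On NPC day 0 it was at least 19.6-fold higher in KO than in WT (adjusted p = 0.0160), and at least 10.7-fold higher in mCaPS (adjusted p = 0.0516). Of its 100-base exon stretches, 76.3% occur in another annotated gene.

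CBX7-CaPS-R was deposited in tables of its own, in which Zscan4a and Zscan4f are the listed genes with a row, and neither passed the filter on low counts, so no test was made. In the 9 EB libraries both genes had 0 counts, where 3 counts equal 0.0297 to 0.315 CPM per library. In the NPC libraries Zscan4a had 2, 4 and 2 counts on days 0, 6 and 8 and Zscan4f 0, 4 and 2. For these genes scaled over the same rows, EB day 0 means of Zscan4a were 3.01 CPM in CaPS, 1.89 CPM in mCaPS, 16.9 CPM in KO and 1.47 CPM in WT. The CaPS-R table of the EB series has 20823 genes, against 24961 for the other lines. Whether both were counted in the same way is not given in the sources used here. The part of this in the low CaPS-R counts was not tested. CaPS-R libraries held 11 to 110.0 M counts in the EB series and 11.7 to 29.1 M in the NPC series.

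A wider list of 2-cell genes was counted in the same comparisons. Of 41 further genes listed, chosen with earlier results of these data known, 36 had a row, and 24 passed the filter in the EB series and 20 in the neural one. Between EB day 10 and day 0, 9 of the 24 were lower in CaPS, 18 in mCaPS, 23 in KO and 8 in WT, where 12.1%, 18.5%, 9.87% and 14.5% of all genes were lower. In KO the log2 fold changes of the 4 with the smallest adjusted p were -6.21 ± 1.16 for Gm8300, -5.96 ± 1.15 for Gm5662, -6.20 ± 1.29 for Gm2016 and -7.33 ± 1.53 for Gm12794. In EB KO stem cells all 24 lay above WT, with a median log2 fold change of 3.20, against -0.09 over all genes, and none was called (edgeR, Tmem92, 4.20 ± 1.11, adjusted p = 0.0980; Gm8300, 3.83 ± 1.02, adjusted p = 0.0992). Genes low in the other lines could pass the filter through the KO libraries alone, so this count of 24 may be raised by the filter. The share of all genes above WT was not counted. Dux, the activator of the programme, was at 0.171, 0.556 and 0.572 CPM in KO, against 0, 0.149 and 0.0662 CPM in WT (2.44 ± 1.31, edgeR adjusted p = 0.752).

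In neural WT 8 of the 20 genes were higher on day 6 than on day 0, where 19.0% of all genes were higher, and 19 lay above 0. The median log2 fold change was 2.92, or 1.95 with the 5 genes that had no reads on a day set to their bound, against 0.01 over all genes. Gm2016 rose by 3.61 ± 0.95 on the log2 scale (edgeR adjusted p = 0.00328), Gm8300 by 3.49 ± 1.09 (adjusted p = 0.0115) and Usp17le, of a family of deubiquitinase genes, by 2.88 ± 1.08 (adjusted p = 0.0337). On day 8, 4 were higher, among them Arg2 (2.87 ± 0.71, adjusted p = 0.00128) and Gm8300 (3.15 ± 1.09, adjusted p = 0.0156), and Ddit4l was lower (-1.96 ± 0.43, adjusted p = 0.000372). Of all genes, 27.5% were higher and 24.9% lower on that day. On NPC day 0, 1 was higher in KO than in WT, Gm2016 (3.46 ± 0.95, adjusted p = 0.0272), 2 in mCaPS, Gm2016 (3.68 ± 0.95, adjusted p = 0.0249) and Sp110 (adjusted p = 0.0385), and none in CaPS. The shares of all genes called higher were 2.40% in KO, 1.05% in mCaPS and 0% in CaPS.

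The genes whose pattern over libraries was most like the Zscan4 sum were named by the lower of the EB and NPC Pearson correlations of log2 CPM, over 30 and 36 libraries and 17338 genes. They were Gm2022 (lower value 0.886), Gm2016 (0.881), Gm8300 (0.861), Gm8994 (0.860) and Gm21761 (0.815). The 30 EB libraries were those other than the 6 that stood apart. Gm2022 (chr12:87892834-87896722) and Gm2016 (chr12:87874072-87877859) are neighbours on chromosome 12, and Gm21761 (chr13:119912035-119913468) lies beside Tcstv1. Gm2022, Gm2016 and Gm8300 are also on the list of further 2-cell genes.

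Genes listed as activators of the programme, a role not checked here, were followed in the same libraries. Of 8 tested, 5 were lower in neural WT on day 6 than on day 0 (median log2 fold change -1.26), where 18.2% of all genes were lower. On day 8 there were 6 (median -1.19), where 24.9% of all genes were lower. Dux itself had 6 reads in neural WT on day 6 and 6 on day 8, and none on day 0. Dppa4 and Dppa2, which activate Dux, had log2 fold changes of -3.5 ± 0.55 and -3.63 ± 0.64 on day 6 (edgeR adjusted p = 1.57e-05 and 7e-05), and of -5.77 ± 0.62 and -6.01 ± 0.74 on day 8 (adjusted p = 2.42e-08 and 1.75e-07). Tet1 was at -2.97 ± 0.36 on day 6 (adjusted p = 4.69e-07). Pou5f1, which marks the pluripotent cells, was at 7.29 to 28.1 CPM on NPC day 6, against 579 to 1301 CPM on day 0, over all lines. In EBs of WT, Dppa4 and Dppa2 had log2 fold changes of -3.60 ± 0.48 and -5.20 ± 0.84 on day 10 against day 0 (adjusted p = 3.41e-06 and 3.64e-05), alongside the Zscan4 genes. In all, 4 activators were lower on EB day 10 in CaPS, 3 in mCaPS, 6 in KO and 5 in WT, where 12.1%, 18.5%, 9.87% and 14.5% of all genes were lower. None of the 8 was called between KO and WT in EB stem cells, and none between any line and WT in NPC stem cells.

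Of 21 known repressors of the programme, 4 were higher and 6 lower in neural WT on day 6 than on day 0 (median log2 fold change -0.28), where 19.0% of all genes were higher and 18.2% lower. Trim28, which recruits histone methylation to retroviral repeats, had a log2 fold change of -1.35 ± 0.23, and L3mbtl2, a subunit of a variant PRC1, of -1.66 ± 0.24. E2f6, of the same complex, was at 1.01 ± 0.16. In EB WT 1 was higher on day 10, E2f6 (0.86 ± 0.27, edgeR adjusted p = 0.0155), and 5 were lower, with Trim28 at -1.53 ± 0.22 (adjusted p = 8.59e-06), where 14.7% of all genes were higher and 14.5% lower. No repressor was called between KO and WT in the stem cells of either series.

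**Figure D5:**
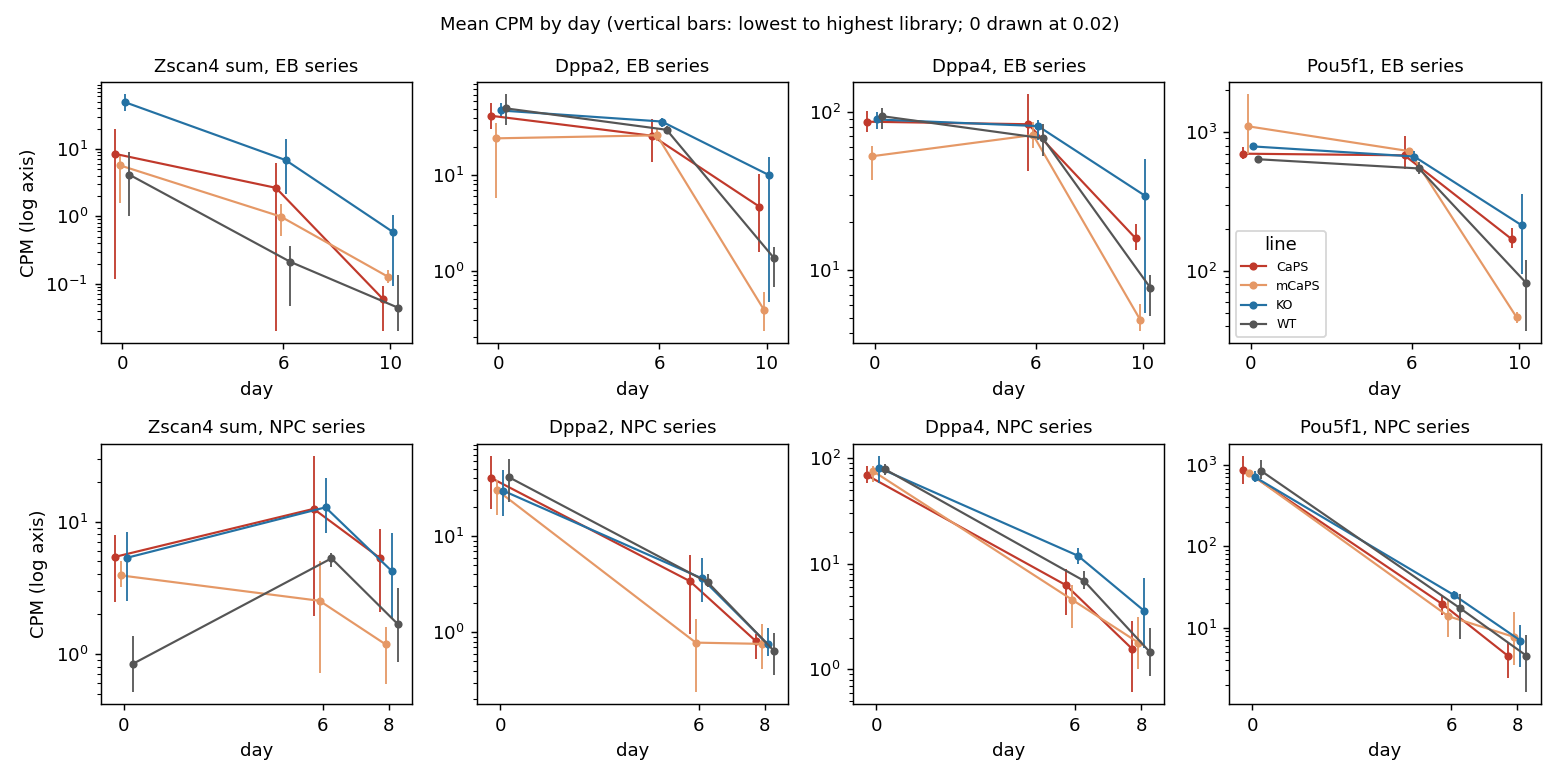
Mean level (CPM, log axis) of the Zscan4 sum, Dppa2, Dppa4 and Pou5f1 by day and line, with bars from the lowest to the highest library, for the EB series and for the NPC series. In neural WT the Zscan4 sum is higher on day 6 (5.28 CPM) than on day 0 (0.838 CPM), while Dppa2, Dppa4 and Pou5f1 are lower on day 6.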

How the data were processed

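Counts per gene were deposited by the authors for the EB series, the NPC series and, in separate tables with fewer rows, CBX7-CaPS-R. The processing named is cutadapt 1.14, STAR 2.7.0, featureCounts 1.6.3, edgeR, HOMER 4.10.4 and the build mm10, per the submitters' processing notes, while strand setting and the treatment of reads with several matches are not given in the sources used here. The deposited counts are whole numbers with no normalization. A further table with 9 columns of per-sample values was not used, since its columns match no labelled sample. The EB table has 23 rows whose names read as dates, and each table of CaPS-R has 22 such rows; all were left out.

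Each series was fitted on its own: 36 libraries in 12 groups, filterByExpr, TMM factors and the robust quasi-likelihood F test of edgeR 4.0.16 (R 4.3.3, limma 3.58.1), two-sided, with Benjamini-Hochberg adjustment over all genes tested and a threshold of 0.05. The common dispersion was 0.152 for EBs and 0.127 for the neural series. Standard errors are the unshrunk log2 fold change over the square root of F. Where a group had 0 reads, a bound with 3 reads over the group replaces the fold. Correlations used log2 CPM with a prior count of 2. Such bounds and the floors of 3 counts treat each count as independent and cover no spread between libraries. Among low counts, even numbers made up 73.5 to 94.1% in EB libraries other than those that stood apart. The share was 76.4 to 90.5% in NPC libraries. Counts may therefore come in pairs, which was not tested. If so, the bounds are too high, the floors too low, and totals given as reads overstate the number of independent observations.

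Alternatives were relative log expression factors, no filter, Rn45s left out, DESeq2 1.42.0, the library number as a block, leaving out the 6 libraries that stood apart, and leaving out each library. Same-numbered libraries deviated together (every correlation of deviations over 0.1) in 10 of 34 comparisons checked. They were CaPS against WT on each day of both series. The others, against day 0, were EB WT on day 6 and EB CaPS, KO and WT on day 10. The main tests of these 10 comparisons are unpaired too. Their paired form is the alternative with the library number as a block, and the calls that it changed are given. The method was tested on simulated data, with libraries drawn independently and changes made only in genes above a minimum count. That run does not cover genes with few reads or libraries that deviate together, so nothing is concluded from it for the listed genes. All listed genes with a row are named; of further lists at most the 4 with the smallest adjusted p per comparison, and the 5 genes most like the sum. The genes and lists were chosen with earlier results of these data known.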

Additional observations from a re-analysis of the deposited data

Results flagged for a closer look

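The change of WT from day 0 to day 6 differed between the neural and the EB series for 5 genes by the interaction of series and day in edgeR. This comparison was added after the values had been seen, and 5.97% of the 18407 genes tested differed in it. The neural change less the EB change was 9.60 on the log2 scale for Zscan4c (adjusted p = 0.000927), 6.89 for Zscan4d (adjusted p = 0.0151) and 6.05 for Zscan4a (adjusted p = 0.0170). For Zfp352 the fitted value was 10.96 (adjusted p = 0.0180) and for Zscan4b 10.33 (adjusted p = 0.00999). Both had 0 reads in WT on NPC day 0, so that these values are not bounds and state no size. Without EB WT day 0 library 2, Zscan4a, Zscan4d and Zfp352 were not called (edgeR adjusted p = 0.0701, 0.0704 and 0.0665).

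The change from day 0 to day 8 in the neural series differed between mCaPS and WT for 2 related genes. None of the 6 listed genes tested was called in this comparison, where 9.49% of all genes were called. The mCaPS change less the WT change was -3.92 for Gm2016 (edgeR adjusted p = 0.0413). For Zscan4b the fitted value was -8.29 (adjusted p = 0.0258), with 0 reads in WT on day 0, so that it is not a bound.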

How the results depend on the processing

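For 72 tests of single genes, 845 repeats under alternatives were tallied, of which 775 kept direction and side of the threshold. Of the others, 53 lost the call, 10 gained one and 7 reversed. All 30 tests that passed the threshold kept their direction. The 72 were the tests that passed and every test of chosen comparisons. Chosen were KO against WT on EB day 0 and day 6, and each changed line against WT on NPC day 0. Also chosen were WT day 6 against day 0 in each series, and CaPS against mCaPS on NPC day 8. Changes in other tests are not in this tally. The 7 reversals were of Tcstv3, which had few reads and was not called. They were in neural WT on day 6, -0.30 and -0.22 without WT day 0 library 2 or 3 and -0.08 without day 6 library 3 (5.01 without day 0 library 1). In CaPS against WT on NPC day 0 they were 4.27 without WT library 1 and 0.09 and 0.27 without CaPS library 1 or 2 (-4.65 without CaPS library 3), and in KO against WT -0.02 without WT library 2 (5.33 without WT library 1). Of 41 comparisons, 27 called 0 genes in every alternative. Leaving out 1 library gave 2 to 6 genes for EB day 10 in CaPS, 4 to 5 in mCaPS, 5 to 6 in KO and 2 to 4 in WT. It gave 0 to 2 for EB WT day 6, 0 to 1 for KO against WT on EB day 6, 0 to 1 for NPC day 8 in mCaPS and in WT, and 1 to 2 for NPC WT day 6. It gave 0 to 1 for KO against WT on NPC day 0, 0 to 1 for the mCaPS change against WT, and 1 to 5 for the fit of both series. EB WT day 6 gave 1 gene with no filter and 0 without the 6 libraries that stood apart. DESeq2 gave 1 gene for KO against WT on EB day 0 and on day 6, for NPC WT day 8, for mCaPS against WT on NPC day 0 and for the mCaPS change, and 2 for KO against WT on NPC day 0. With the replicate block, in comparisons where the numbers did not deviate together, 1 gene was called for KO against WT on EB day 0 (Zscan4d, adjusted p = 0.0487), for mCaPS against WT on NPC day 0 (Zscan4c, adjusted p = 0.0411) and for the mCaPS change (Zscan4c, adjusted p = 0.0473). Zscan4f was added in NPC WT day 6 (adjusted p = 0.0417), and the block changed no other call beyond those given in the results. With Rn45s left out of the library sizes the EB KO day 0 mean of the Zscan4 sum was 69.1 CPM in place of 49.6. Listed genes of CaPS-R did not pass its filter, so its planned tests could not be made. Most groups after EB day 0 held few reads of these genes, which limits what could be detected; the cause of each change was not tested.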
